A study of Rattus norvegicus with 6 samples.

Results

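The genes described here encode proteins of the synaptic vesicle cycle. They were taken as all probe sets whose single annotated gene symbol was 1 of 35 listed symbols. The array held 33 of these genes, on 48 of 8740 probe sets that are not controls. Napb and Pclo are not analysed here. Spinal cord of rats was sampled near thoracic segment 8, and its total RNA was hybridised to 6 arrays. In the contused group, 3 arrays held tissue from the site of a contusion, a blunt blow to the cord, at day 35. In the uninjured group, 3 arrays held tissue of the same level from rats labelled as uninjured, with no day and no sham operation named. Strain, sex, age and the device used are not given in the sources used here, and injury, surgery and elapsed time cannot be told apart. The labels do not state that every array is another animal; p-values then measure only how these arrays spread, in part perhaps technically.

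Synaptic vesicles store transmitter at nerve terminals. A vesicle docks at the active zone, is primed, and fuses with the plasma membrane when calcium enters and SNARE proteins on both membranes zip together. NSF and its adaptors then pull the SNARE complexes apart, while dynamin and its partners retrieve the membrane by endocytosis. Most mRNA for these proteins lies in the cell body. A cord segment therefore reports largely on neurons whose bodies lie in it, such as interneurons and motor neurons, rather than on the terminals of axons that arrive from elsewhere.

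A signal below is the authors' deposited intensity on a linear scale. Dim signals were raised to a floor of 61.6, the 25th percentile of all values, before the log2 transform. Testing required a probe set to exceed that floor on 3 or more of the 6 arrays, and the brightest tested probe set, by mean, stood for its gene. Array medians ran from 122 to 127. Log2 signals correlated across probe sets at 0.969 to 0.983 within a group and at 0.936 to 0.951 between groups. Mbp (myelin), Nefl (neurofilament) and Chat (acetylcholine synthesis in motor neurons) were each above the floor on all 6 arrays. This is a weak check of the tissue label, since 73.1% to 76% of probe sets exceeded the floor on each array. Chat was close to it, at 64.5 on uninjured replicate 2.

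Many but not all vesicle cycle genes were lower at the contusion site. Of 29 member genes tested, 16 were lower and 0 higher at an adjusted p under 0.05 in limma, while 9.91% of all genes tested were lower and 7% were higher by the same rule. At an unadjusted p under 0.05 in limma, 18 members were lower and 1 was higher, while 668 of all 3955 genes tested were lower and 510 were higher. The fall was at least 2-fold in 11 members, against 2.38% of all genes. Svop, counted among both the 16 and the 11, met the filter only through its uninjured arrays. Rims1, counted among the 16, also met it through them, with 1 contused array above the floor. The median log2 change over the tested members was -0.61, which is 65.3% of the uninjured level, and over all genes it was -0.02. For 19 members all contused arrays lay below all uninjured arrays, and for 2 they lay above; over all genes tested these shares were 19.4% and 15.8%. The other 4 genes on the array (Syt1, Cplx2, Unc13b and Bsn) were too dim to be tested. Fewer neurons and less RNA per neuron cannot be told apart in whole tissue.

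**Figure D1:**
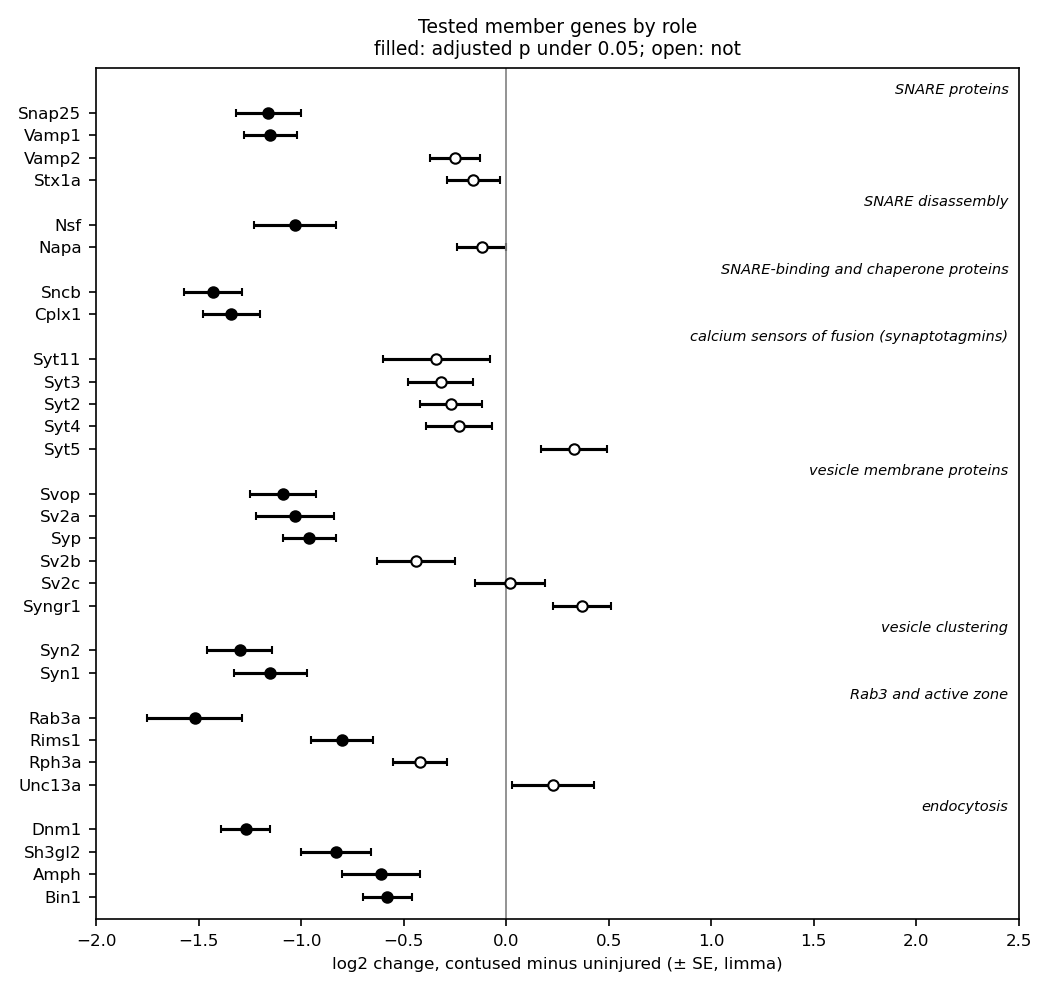
Log2 change (contused minus uninjured, x axis) of the 29 tested member genes, grouped by role, with the standard error from limma; filled points passed an adjusted p of 0.05. The 16 filled points all lie left of 0, from Rab3a at -1.52 to Bin1 at -0.58, and the synaptotagmins hold none of them.

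The core fusion machinery was split. Per-array values follow in the order of replicates 1 to 3. Snap25, the SNARE of the plasma membrane that contributes a pair of helices, read 704, 779 and 1058 on the contused arrays and 1688, 1832 and 2111 on the uninjured arrays. The groups do not overlap, and limma gave a log2 change of -1.16 (SE 0.16, adjusted p = 0.000839), or 2.24-fold lower. Vamp1 (synaptobrevin 1), the vesicle SNARE of many spinal and brainstem neurons, read 426, 541 and 505 after contusion against 1023, 1153 and 1077, a log2 change of -1.15 (SE 0.13, adjusted p = 0.000299). Every contused array of Vamp1 thus stood well under the lowest uninjured array.

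Vamp2, the close relative that serves most forebrain synapses, read 744, 643 and 708 against 796, 838 and 852. Its groups did not overlap either, but the distance was small (log2 change -0.25, 95% interval -0.52 to 0.02, adjusted p = 0.199). Stx1a, syntaxin 1A of the plasma membrane, lay between 76.4 and 97 on the contused arrays and between 90.7 and 99.5 on the uninjured arrays, and these ranges overlap. Its log2 change was -0.16 (95% interval -0.46 to 0.13), on signals not far above the floor.

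The 250 bases upstream of the Vamp1 and Vamp2 starts are shown because these paralogs moved unequally. Both come from RefSeq on the GRCr8 assembly, 5′ to 3′ on the gene's strand, at chr4:159698644-159698893 (plus strand) and chr10:54292539-54292788 (plus strand). Capitals mark matches to 3 motifs searched on both strands: the cAMP response element TGACGTCA, the GC box GGGCGG with its reverse complement CCGCCC, and TCAGCACC, the left part of the RE1 element bound by the repressor REST.
Vamp1: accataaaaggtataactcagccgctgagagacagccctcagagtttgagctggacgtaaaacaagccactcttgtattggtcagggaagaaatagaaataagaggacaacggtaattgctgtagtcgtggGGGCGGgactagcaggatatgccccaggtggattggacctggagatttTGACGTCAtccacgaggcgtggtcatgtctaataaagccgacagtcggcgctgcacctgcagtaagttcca
Vamp2: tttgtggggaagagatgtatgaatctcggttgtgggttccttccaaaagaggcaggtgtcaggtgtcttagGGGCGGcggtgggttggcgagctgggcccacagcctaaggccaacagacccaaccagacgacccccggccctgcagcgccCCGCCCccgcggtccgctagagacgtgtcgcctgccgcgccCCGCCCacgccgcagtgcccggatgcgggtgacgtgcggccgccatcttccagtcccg
The Vamp1 window held 1 cAMP response element, 71 bases before the start, and 1 GC box. The Vamp2 window held 3 GC boxes and no match to the other motifs.

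Such windows were matched by gene identifier for 29 of the 33 genes on the array. Snap25, Syngr1, Syt5 and Unc13b were not matched. The cAMP response element was found in 4 of the 29 windows: those of Vamp1, Syn1 and Sh3gl2, which were lower after contusion, and that of Napa, which did not pass. It stood in 2.35% of the windows of 3495 genes tested on the array and in 1.59% of all 33469 windows. The 4 sites are set out with 11 bases on each side, since they show how unlike their surroundings are; capitals again mark all 3 motifs.
Vamp1: cctggagatttTGACGTCAtccacgaggcg
Syn1: caaaggcgggcTGACGTCActctccagccc
Sh3gl2: atcacCCGCCCTGACGTCAgggtgtctctc
Napa: gcagacccgggTGACGTCAacgtagcGGGC
In the Sh3gl2 stretch a GC box on the opposite strand directly precedes the element, and the Napa stretch ends within a GC box. The 4 stretches lie on GRCr8, plus strand, at chr4:159698812-159698841, chrX:3725544-3725573, chr5:104699193-104699222 and chr1:85915365-85915394. A GC box was found in 11 of 15 windows of genes that were lower and in 7 of 11 windows of genes that did not pass, against 55.3% of the windows of genes tested. This motif holds only G and C, and base content was not allowed for. The median share of G and C was 64.8% in the members' windows and 51.2% in all windows, of which 30.5% held a GC box. That share of G and C was not computed for the windows of genes tested. TCAGCACC occurred in the windows of Sncb and Syt4, and in 1.43% of the windows of genes tested. No matches of different motifs overlapped in the members' windows (0 found). A match is a run of letters, not a measured binding site.

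On each array, the log2 ratio of Vamp1 to Vamp2 cancels what is common to that array. Its mean was -0.51 ± 0.28 (SD, n = 3) after contusion and 0.39 ± 0.06 in uninjured cord, a difference of -0.9 with no overlap of the groups. For Sv2a to Sv2b the difference was -0.6, again with no overlap, and -0.79 with the probe sets of each gene averaged. For Syn1 to Syn2 and for Amph to Bin1 the groups overlapped, with differences of 0.15 and -0.04. Each of the first 2 ratios gave an exact two-sided permutation p of 0.1, the smallest that 3 against 3 arrays allow, and 0.2 after Benjamini-Hochberg adjustment over the 4 pairs measured on both sides. The level of such a ratio has no meaning between probe sets, only its change.

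**Figure D2:**
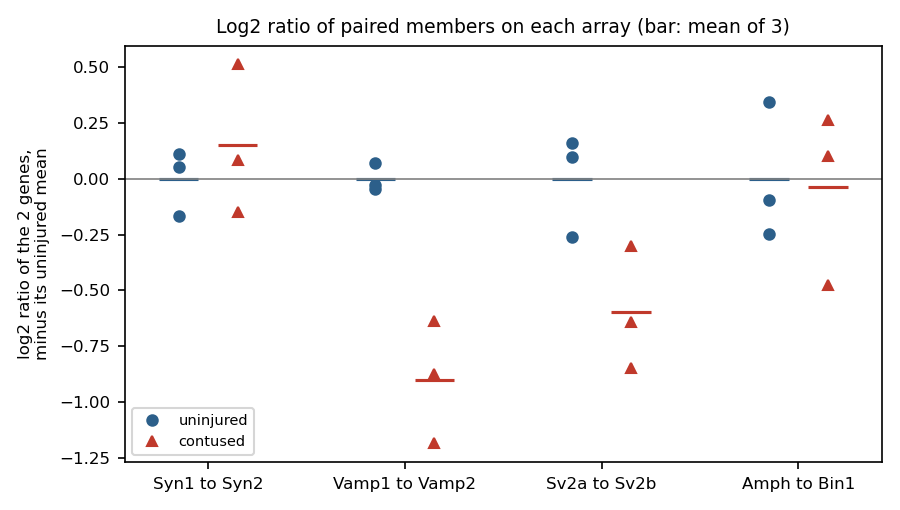
Log2 ratio of paired member genes on each array, minus the mean of the 3 uninjured arrays (y axis), with bars at group means. Contused arrays lie below uninjured arrays for Vamp1 to Vamp2 and for Sv2a to Sv2b, and the groups overlap for the other 2 pairs.

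Genes that act on SNARE complexes were mostly lower. Nsf, the ATPase that takes used complexes apart, read 111, 130 and 166 after contusion and 218, 334 and 279 in uninjured cord (log2 change -1.03, SE 0.2, adjusted p = 0.00582 in limma). Its adaptor Napa (alpha-SNAP) read 679, 744 and 686 against 729, 776 and 786. Those groups overlap, and the log2 change was -0.12 with a 95% interval of -0.38 to 0.14. A second probe set of Napa had non-overlapping groups and a log2 change of -0.44, just short of the threshold (adjusted p = 0.0507).

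Cplx1, complexin 1, binds the assembled SNARE bundle and times its last step. It read 299, 281 and 351 on the contused arrays and 698, 809 and 847 on the uninjured arrays, 2.53-fold lower (log2 change -1.34, SE 0.14, adjusted p = 0.000186). Sncb, beta-synuclein of the presynaptic terminal, read 79.2, 85.5 and 99.9 against 229, 236 and 243, 2.69-fold lower (log2 change -1.43, SE 0.14, adjusted p = 0.000134). In neither gene did a contused array come near the lowest uninjured array. Cplx2 was above the floor on 2 uninjured arrays and on 0 contused arrays, too few to be tested.

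No synaptotagmin passed. These vesicle and plasma membrane proteins carry C2 domains, and several sense the calcium that triggers fusion. Of 5 tested, 0 were lower and 0 higher in limma, also at an unadjusted p under 0.05, and 4 had a negative and 1 a positive change. Over all genes tested, 9.91% were lower and 7% higher by adjusted p, so 0 calls among 5 genes cannot set this family apart. Syt2, the fast sensor of many spinal and brainstem terminals, read 88.6, 72 and 74.1 after contusion and 89.5, 83.8 and 111 in uninjured cord (log2 change -0.27, 95% interval -0.6 to 0.05). Syt3 had a log2 change of -0.32 (95% interval -0.67 to 0.03) and Syt4 of -0.23 (-0.57 to 0.12). The intervals of Syt3 and Syt4 exclude a 2-fold fall. For Syt2 the interval cannot decide this. Its uninjured mean of 6.55 on log2 lies too near the floor of 5.94 for a 2-fold fall to show. The interval of Syt11, -0.92 to 0.25, was the widest of the family. Its contused replicate 3 was at 211 and the other contused arrays at 105 and 99.6. Without contused replicate 3, Syt11 passed as lower, with a log2 change of -0.68 (adjusted p = 0.0287).

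Syt5 was the only tested synaptotagmin with a positive change. It read 803, 794 and 717 after contusion against 712, 483 and 674, so the groups did not overlap, with a log2 change of 0.33 (95% interval -0.03 to 0.68, adjusted p = 0.204). Without uninjured replicate 2, the array at 483, the change of Syt5 was 0.15. Syt1, the main fast calcium sensor of forebrain synapses, lay between 2.85 and 28.6 on all 6 arrays, below the floor, and so this probe set gives no measure of it.

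Genes for proteins of the vesicle membrane passed as lower in 3 of 6 cases. Syp (synaptophysin), a tetraspan protein used widely as a marker of synapses, read 925, 735 and 701 on the contused arrays and 1450, 1519 and 1581 on the uninjured arrays. Limma gave a log2 change of -0.96 (SE 0.13, adjusted p = 0.000839), or 51.5% of the uninjured level. Sv2a, a transporter-like glycoprotein that binds the antiseizure drug levetiracetam, read 200, 217 and 254 against 346, 504 and 543 (log2 change -1.03, SE 0.19, adjusted p = 0.00381). Svop, related to the SV2 proteins, read 50, 33.4 and 58.1 after contusion, all below the floor, and 153, 143 and 104 in uninjured cord. It was at least 2.13-fold lower (adjusted p = 0.000955 in limma). Svop met the filter only through its uninjured arrays, so only a fall could be found. Its p-value is therefore no independent support for a fall.

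The remaining vesicle membrane genes did not pass the threshold. Sv2b read 141, 222 and 225 against 236, 268 and 277, with no overlap of the groups (log2 change -0.44, 95% interval -0.87 to -0.01, adjusted p = 0.158). Without contused replicate 1 the change of Sv2b was -0.22, and its other probe set gave -0.06 with overlapping groups. Sv2c, the isoform of more restricted expression, ranged from 113 to 138 after contusion and from 101 to 152 in uninjured cord, with a log2 change of 0.02 (95% interval -0.37 to 0.41). Syngr1 (synaptogyrin 1), a tetraspan relative of synaptophysin, read 150, 177 and 151 against 127, 122 and 121. All of its contused arrays were above all uninjured arrays, with a log2 change of 0.37 (adjusted p = 0.101). With the floor raised to the 50th percentile it passed as higher (adjusted p = 0.0321), the 1 setting in which it did. The other probe sets of Syngr1 gave log2 changes of 0.4 and 0.03, the latter with overlapping groups, and the average over its probe sets gave 0.26 (adjusted p = 0.178).

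The synapsins, which tether vesicles to one another and to actin in the reserve pool, were both lower. Syn1 read 162, 240 and 249 after contusion and 469, 457 and 492 in uninjured cord, 2.22-fold lower (log2 change -1.15, SE 0.18, adjusted p = 0.00151). Syn2 read 73.7, 69 and 96.1 against 186, 211 and 186, 2.46-fold lower (log2 change -1.3, SE 0.16, adjusted p = 0.000421). In each gene the highest contused array stayed under the lowest uninjured array.

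Rab3a was among the members with the largest falls. This small GTPase sits on vesicles and recruits them to the active zone. It read 156, 236 and 329 on the contused arrays and 618, 709 and 657 on the uninjured arrays, 2.87-fold lower (log2 change -1.52, SE 0.23, adjusted p = 0.00144). The contused arrays of Rab3a also spread more widely than the uninjured ones, and without contused replicate 1 its log2 change was -1.24, a smaller fall than that of Sncb (-1.35). Rims1, the active zone scaffold that binds Rab3, read 74.7, 49.4 and 60.2 against 94, 120 and 132 (log2 change -0.8, SE 0.15, adjusted p = 0.00562). As only 1 contused array was above the floor, this log2 change understates the difference. For the same reason Rims1 met the filter through its uninjured arrays, so its p-value is no independent support for a fall. Without the filter on dim probe sets Rims1 did not pass (adjusted p = 0.0531).

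Rph3a (rabphilin), another Rab3 effector, read 56.8, 46.2 and 62.2 after contusion and 98.9, 72.8 and 78.1 in uninjured cord. It missed the threshold narrowly (log2 change -0.42, adjusted p = 0.0509) and passed under several other settings. With 1 contused array above the floor, Rph3a too met the filter through its uninjured arrays. Unc13a, the Munc13 protein that primes docked vesicles by opening syntaxin, read 393, 269 and 227 against 256, 215 and 273. Its groups overlapped, with a log2 change of 0.23 (95% interval -0.23 to 0.68). The change of Unc13a was 0 without contused replicate 1, 0.4 without contused replicate 3 and 0.12 without uninjured replicate 2. Unc13b and the scaffold gene Bsn were above the floor on 1 and on 0 of the 6 arrays.

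Endocytosis genes were lower in all 4 cases tested. Dnm1, the neuronal dynamin that severs the necks of budding vesicles, read 597, 505 and 554 after contusion and 1348, 1228 and 1404 in uninjured cord (log2 change -1.27, SE 0.12, adjusted p = 0.000117). Sh3gl2 (endophilin A1), which bends the membrane and brings in dynamin, read 163, 150 and 212 against 271, 326 and 329 (log2 change -0.83, SE 0.17, adjusted p = 0.00739). Amph (amphiphysin), a link between dynamin and the clathrin coat, read 148, 220 and 211 against 341, 252 and 287, a log2 change of -0.61 at an adjusted p of 0.0471. The call of Amph was lost without any 1 of the 6 arrays (adjusted p up to 0.153).

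Bin1 (amphiphysin 2) read 1087, 960 and 1030 after contusion and 1407, 1575 and 1616 in uninjured cord (log2 change -0.58, SE 0.12, adjusted p = 0.00696). Bin1 is known from oligodendrocytes as well as neurons. Of 8 tested oligodendrocyte markers 5 were lower and 0 higher, and their summed signal ran from 13544 to 14616 after contusion and from 16600 to 17679 in uninjured cord. Their part in the change of Bin1 was not tested.

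**Figure D3:**
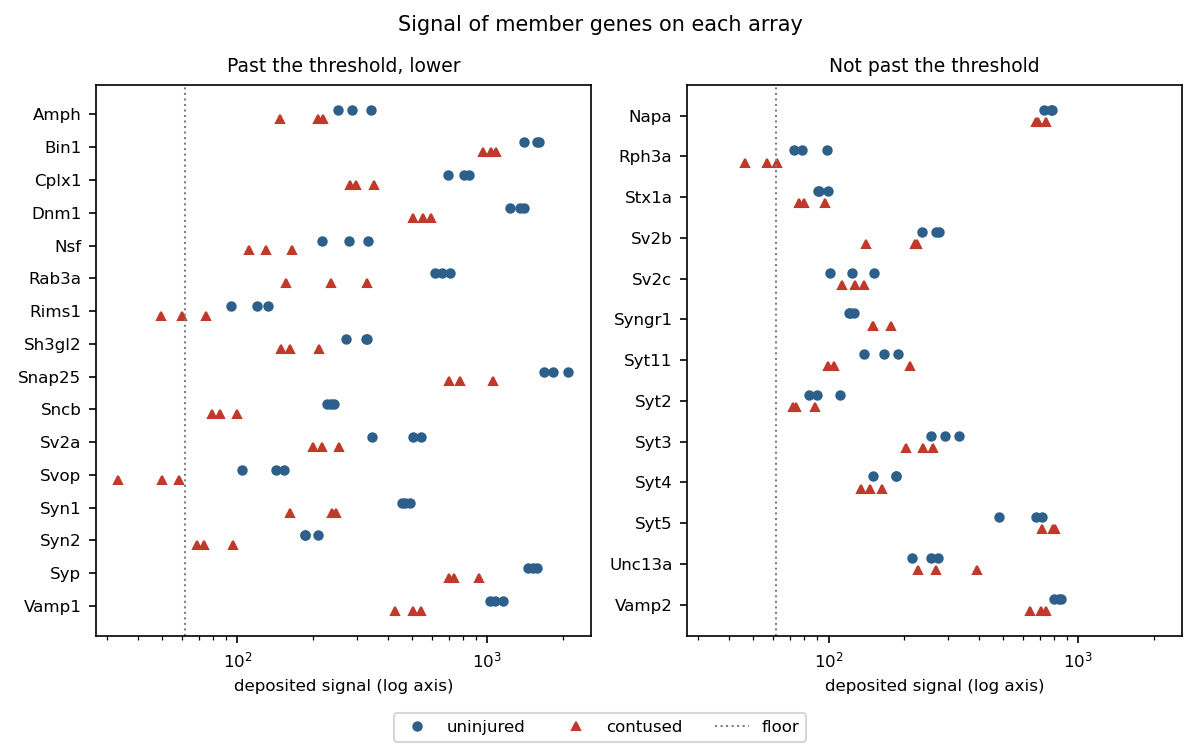
Deposited signal (x axis, log scale) of each tested member gene on each array, circles for the 3 uninjured and triangles for the 3 contused arrays, with the floor of 61.6 dotted. On the left, the 16 genes past the threshold show groups that do not overlap; on the right, 8 of the other 13 genes overlap.

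Where a gene had several probe sets, they agreed in call. All 11 genes with more than 1 tested probe set had either every one of them lower or none past the threshold. Sizes varied more. The 3 tested probe sets of Snap25 gave log2 changes of -1.16, -1.77 and -1.96, so that the fold ranged from 2.24 to 3.9 with the probe set chosen. The probe set with the largest of these falls read 298, 269 and 637 on the contused arrays and 1381, 1307 and 1676 on the uninjured arrays. Another probe set of Snap25 stayed below the floor on all 6 arrays. Those of Syn2 gave -0.6, -0.96 and -1.3, and the first of them was at the floor on all contused arrays, at least 1.51-fold lower. That probe set met the filter only through the uninjured arrays. The second probe set of Vamp1 gave -1.04 and that of Vamp2 gave 0, so the contrast between these paralogs did not rest on 1 probe set. In all, 23 of 43 tested probe sets of the members were lower and 0 higher, against 9.59% and 7.79% of all probe sets tested. Probe sets of 1 gene report on the same RNA and are not replicates.

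**Figure D4:**
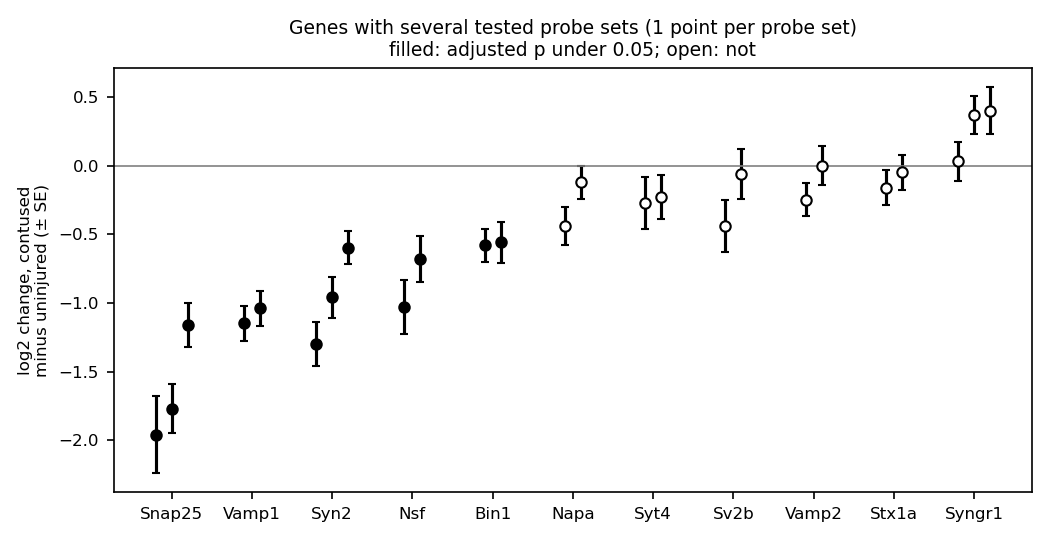
Log2 change (contused minus uninjured, y axis, with the standard error from limma) of every tested probe set of the 11 member genes that have several; filled points passed an adjusted p of 0.05. Points of a gene are all filled or all open, while those of Snap25 range from -1.16 to -1.96.

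Arrays of a group did not rank evenly over the 16 lower genes. Among the contused arrays, replicate 3 was the highest for 10 of them and the lowest for 1, while over all 3955 genes tested it was the highest for 33.8% and the lowest for 36.4%. In the uninjured group, replicate 1 was the lowest for 12 of the 16 (40.7% of all genes) and replicate 3 the highest for 10 (33.4%). These ranks are a description, with no test. Summed over the 29 tested members, the signal was 8993, 8894 and 9605 on the contused arrays and 14423, 15105 and 15941 on the uninjured arrays. Leaving out 1 array at a time left 15 to 16 members lower, and 15 of the 16 kept their call in all 6 such fits.

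A further 103 genes that are no members were listed by name as presynaptic, and 56 of them were tested. The list also holds genes of general membrane traffic made in many cell types, such as Stx5, Vamp3 and Scamp2. Its median therefore does not describe genes particular to nerve terminals. Of the 56 tested, 10 were lower (17.9%) and 1 higher (1.79%), against 9.91% and 7% of all genes tested. The median log2 change was -0.07, so by its median this wider list lay nearer to all genes than the members did. That difference between lists was not tested. Cadps, which primes dense-core vesicles, fell to 39.7% of the uninjured level, reading 291, 291 and 334 against 713, 801 and 791 (log2 change -1.33, SE 0.13, adjusted p = 0.000116). Slc32a1, the transporter that loads GABA and glycine into vesicles, read 162, 124 and 260 after contusion and 518, 561 and 564 in uninjured cord (log2 change -1.66, adjusted p = 0.000831). The scaffold gene Lin7b was at the floor on all contused arrays, at least 2.19-fold lower, and met the filter only through the uninjured arrays. Nrxn3, a neurexin that joins terminals to their targets, had a log2 change of -1.22 (adjusted p = 0.00163).

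Scamp2, a carrier membrane protein made in many cell types, was the 1 gene of this list that rose, from 232 ± 49.1 to 462 ± 56.2 (SD, n = 3; log2 change 1.01, adjusted p = 0.00298). Unc13c, named after its value was seen because it is of the same family as Unc13a, had a log2 change of -1.01 (adjusted p = 0.00594). Without the filter on dim probe sets the wider list held 5 lower genes.

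Markers of several cell types differed between the groups as well, in either direction. Of 15 tested neuron markers outside the members, 14 were lower and 0 higher, with a median log2 change of -1.03 and a summed signal of 9416 to 9856 after contusion against 18012 to 20807. Thy1, Nrgn, Vsnl1 and Nefh had the smallest p. Nrgn was at the floor on all contused arrays and met the filter only through the uninjured arrays. Gap43, a protein of growing axons, was the exception (578 ± 11.1 against 577 ± 23.7). The mean log2 signal of the members minus that of the neuron markers was -1.04, -0.89 and -1.01 on the contused arrays and -1.41, -1.52 and -1.48 on the uninjured arrays. On this measure the members' mean was lowered less than the neuron markers' mean, with no overlap between groups. Both lists were drawn up with results known, so no test was made. The members were also dimmer in uninjured cord (mean log2 8.37 to 8.46 against 9.78 to 9.95). The floor cuts short the falls of dim genes, and its part in this difference was not tested.

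Among 12 tested markers of microglia and macrophages, 11 rose and 0 fell, with a summed signal of 9148 to 9650 after contusion against 3355 to 3830. In uninjured cord 2 of them, Fcgr2b and Itgam, were at the floor on all arrays, and so met the filter only through the contused arrays. Markers of meninges and fibroblasts were higher in 4 of 9 cases (13037 to 15973 against 6585 to 11806) and those of Schwann cells in 1 of 5 (4185 to 5335 against 3307 to 3565). The meningeal sum of 6585 was that of uninjured replicate 3, while uninjured replicates 1 and 2 had 10666 and 11806. Of 10 astrocyte markers 2 rose and 0 fell, and their sums overlapped, at 13118 to 14046 against 12795 to 13528. Of the neuroendocrine markers, which neurons also express, 3 of 4 were lower, and the lower gene Chgb is counted among the neuron markers as well. Endothelial markers had 0 calls in limma among 7 tested genes (2 lower at an unadjusted p under 0.05), and oligodendrocyte progenitor markers 0 among 4 (also 0 at that level). Motor neuron markers had 2 lower and 1 higher of 6, and the lower gene Slc18a3 is also counted in the wider presynaptic list. The part that these shifts in tissue makeup have in the members' changes was not tested.

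**Figure D5:**
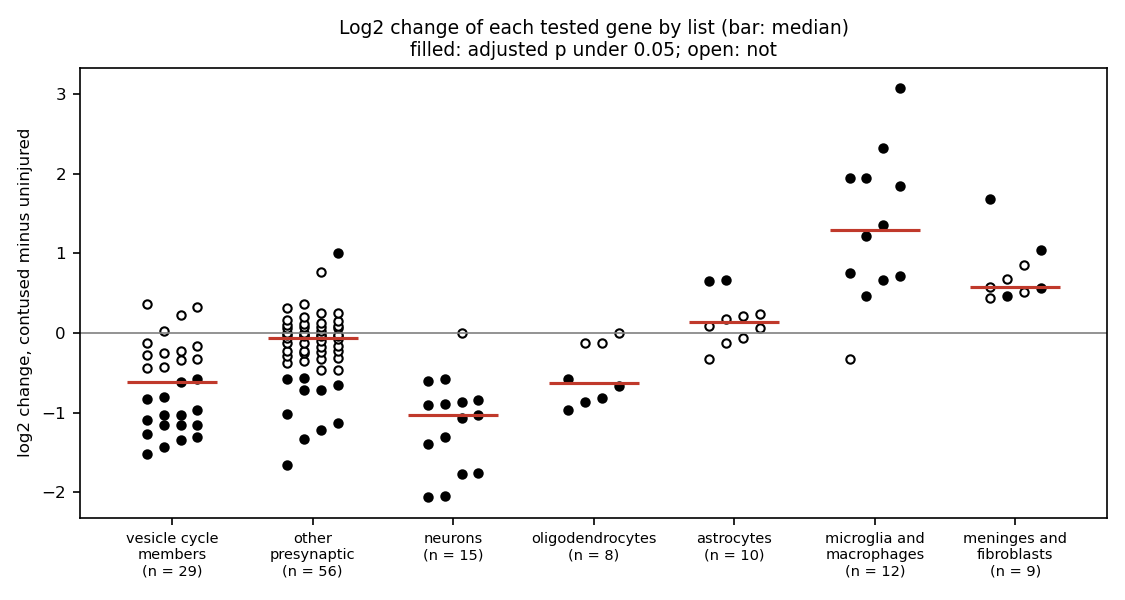
Log2 change (contused minus uninjured, y axis) of each tested gene of 7 lists, with a bar at the median; filled points passed an adjusted p of 0.05. The members' median of -0.61 lies between those of the wider list labelled other presynaptic (-0.07) and the neuron markers (-1.03). The median of microglia and macrophage markers lies at 1.29.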

How the data were processed

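The deposited table holds 1 intensity per probe set for each of 6 arrays, read as linear from the values, since 21 to 32 of them on each array are negative. The sources used here do not say how the authors made these deposited intensities from probe readings. No rescaling was applied. Gene symbols came from the array's annotation and were updated by gene identifier to GRCr8 (RefSeq); the update changed 0 member symbols and added 0 probe sets. The 59 control probe sets were left out. Values below the pooled 25th percentile (61.6, or 5.94 on log2) were set to it, log2 was taken, and 6705 of 8740 probe sets (3955 genes) with at least 3 of 6 arrays above it were fitted with limma 3.58.1 in R 4.3.3 (lmFit, eBayes with an intensity trend; two-sided, no covariates). Adjustment was by Benjamini-Hochberg over all probe sets tested, and intervals of log2 changes are 95% intervals from the same fit. Precision is limited by the number of arrays, which leaves 4 residual degrees of freedom. Exact permutation tests were used for ratios. Plots used Python 3.11.15 and matplotlib 3.10.9. The table held 0 columns of other samples.

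The members, the other lists, the motifs and the alternatives were chosen with earlier results of these data known. Values on each array are given for every member past the threshold and for the others as far as needed. Of the other presynaptic genes and the neuron markers, up to 4 genes per direction with the smallest p are named. The remaining cell type lists are given by counts, some with summed signals.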

Additional observations from a re-analysis of the deposited data

How the results depend on the processing

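Across 8 other settings and 6 fits that each leave out 1 array, between 11 and 17 member genes were lower (16 as reported) and no member gene changed direction with a call. Amph lost its call at the 10th percentile floor (adjusted p = 0.0509), with quantile normalization (0.0549) and without the filter on dim probe sets (0.164). Without that filter Sv2a (0.0537), Sh3gl2 (0.0541), Nsf (0.0669) and Rims1 (0.0531) also missed the threshold; over all probe sets 396 were then lower and 266 higher, and 5 other presynaptic genes were lower. Rph3a passed at the 10th percentile floor (0.0465), with quantile normalization (0.0379), with arrays shifted to a common median (0.049) and with probe sets averaged (0.0428). With the floor at the 50th percentile 1 member gene and 1 member probe set were higher (Syngr1), Rims1, Rph3a, Stx1a, Svop and Syt2 were too dim to test, and the change of the Syn1 to Syn2 ratio was -0.52 in place of 0.15; with probe sets averaged it was -0.2. Leaving out 1 array gave 383 to 776 probe sets lower and 276 to 484 higher, with the lowest counts without uninjured replicate 3, and 1 to 2 other presynaptic genes higher. The titles give both groups the same replicate numbers, but deviations from the group means correlated at 0.0415, 0.222 and -0.244 between arrays of equal number, so the numbers were not taken as pairs; with the replicate number as a block 15 member genes were lower and Amph did not pass (adjusted p = 0.0568). The cause of these differences was not tested. Members near the floor (Rims1, Rph3a, Stx1a, Svop and Syt2 among them) have little range in which to fall, and Syt1, Cplx2, Unc13b and Bsn cannot be judged.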
